A study of Homo sapiens with 12 samples.

Results

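The genes described here are the E2F transcription factors and the pocket proteins that bind them. The rule took the rows of the count table whose gene symbol is *E2F1*, *E2F2*, *E2F3*, *E2F4*, *E2F5*, *E2F7*, *E2F8*, *RB1*, *RBL1* or *RBL2*, and it did not use any measured difference. The symbols were, however, chosen with earlier results of these data known. All 10 symbols were found among the 57500 genes of the table, and all 10 passed the filter on low counts that left 16251 genes to test.

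RNA sequencing was done on 12 libraries of MRC5 cells, a line of human embryonic lung fibroblasts with a finite lifespan, in 4 groups of 3. Prol libraries came from proliferating cells without irradiation, and Sen(IR) libraries came from cells driven into senescence by an X-ray dose of 20 Gy and collected 10 to 12 days later. Sen(IR)+UK5099 cells were irradiated in the same way and given UK5099, an inhibitor of the mitochondrial pyruvate carrier, at 100 µM. Sen(IR)+CTPI2 cells were irradiated and given CTPI2, an inhibitor of the mitochondrial citrate carrier SLC25A1, at 15 or 30 µM, and the dose of the sequenced cells is not given in the sources used here. Both inhibitors were added 1 day after irradiation and kept in the medium. All libraries come from a single fibroblast line, no proliferating cells received an inhibitor, and the study describes its sequenced samples as independent experiments or conditions. The labels themselves do not say which culture each library came from, and the p-values measure the spread between these libraries.

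E2F factors bind DNA as partners of DP proteins and switch on the genes of DNA replication and mitosis. E2F1, E2F2 and E2F3 are known as activators, E2F4 and E2F5 mostly act as repressors together with pocket proteins, and E2F7 and E2F8 are atypical repressors that bind without DP proteins. The retinoblastoma protein (RB1) holds activator E2Fs in check until cyclin-dependent kinases phosphorylate it. Its relatives p107 (RBL1) and p130 (RBL2) join E2F4 or E2F5, a DP protein and the MuvB core in the DREAM complex, which represses cell cycle genes in resting cells. Several E2F genes and *RBL1* are themselves textbook targets of E2F.

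Total counts ran from 20597736 to 28245693 per library. Levels are given in CPM, read counts relative to the library size after TMM scaling, and 3 counts correspond to 0.111 to 0.147 CPM depending on the library. The 9 fibroblast markers together reached 20790 to 24580 CPM in the Prol group and 19988 to 20558 CPM in the Sen(IR) group. In the UK5099 group their sum was 10557 to 11001 CPM, and in the CTPI2 group it was 17536 to 19319 CPM. Epithelial markers summed to at most 1.34 CPM, immune markers to at most 2.11 CPM and endothelial markers to at most 6.23 CPM in any library, and the medians of *KRT5*, *SFTPC*, *CDH5* and *CD3E* were 0 CPM. These are bulk libraries, in which fewer cells expressing a gene and less RNA per cell cannot be told apart.

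The stretch upstream of the gene start is shown for the 4 members in which an E2F motif was found, of the 8 with a RefSeq promoter entry. It is also shown for *E2F7*, which has none and had the lowest adjusted p among the members in UK5099 against Sen(IR). Each line holds the 120 bases before the RefSeq gene start (GRCh38.p14), 5′ to 3′ on the strand of the gene. Capitals mark a match to TTTCCCGC, TTTCGCGC, TTTGGCGC or TTTGCCGC on either strand (E2F motif), or to TTTGAA or TTCGAA on either strand (cell cycle genes homology region, CHR). The E2F and CHR matches do not overlap each other in these stretches.
E2F1 (chr20:33686386-33686505, minus strand): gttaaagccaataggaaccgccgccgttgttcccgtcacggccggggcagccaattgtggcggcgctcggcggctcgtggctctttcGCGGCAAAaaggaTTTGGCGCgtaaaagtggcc
E2F2 (chr1:23531234-23531353, minus strand): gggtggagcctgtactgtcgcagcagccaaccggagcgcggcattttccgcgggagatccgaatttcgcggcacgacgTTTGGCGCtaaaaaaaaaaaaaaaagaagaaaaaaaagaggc
E2F3 (chr6:20401759-20401878, plus strand): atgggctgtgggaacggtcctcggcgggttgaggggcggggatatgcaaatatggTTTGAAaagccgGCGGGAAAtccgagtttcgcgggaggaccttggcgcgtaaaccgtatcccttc
RBL1 (chr20:37095998-37096117, minus strand): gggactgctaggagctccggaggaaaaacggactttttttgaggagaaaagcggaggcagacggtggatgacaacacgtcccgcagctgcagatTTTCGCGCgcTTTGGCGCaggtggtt
E2F7 (chr12:77065570-77065689, minus strand): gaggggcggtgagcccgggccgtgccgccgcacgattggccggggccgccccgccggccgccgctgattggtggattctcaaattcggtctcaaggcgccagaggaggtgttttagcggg

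In windows of 300 bases around the gene start, the E2F motif was present in 3.31% of 35116 RefSeq promoters and the CHR in 16.4%. The E2F motif lay at −33 (minus strand) and −20 in *E2F1*, at −42 in *E2F2*, at −53 (minus strand) in *E2F3*, and at −26 and −16 in *RBL1*, counted from the gene start to the first base of the match. The CHR in the *E2F3* stretch lay at −65, and *RBL2* held a CHR at 25, downstream of the start and outside the stretches shown. Both *E2F3* and *RBL2* had a further entry, with upstream stretches at chr6:20403494-20403613 and chr16:53435499-53435618, in which neither motif was found. The entry for *RB1* is a stretch inside the gene (chr13:48476330-48476449), so the sequence before the 5′ end of *RB1* was not searched. *E2F5* and *E2F8* had no entry and were not searched. A match is a description of the letters in the window and was not tested as a binding site.

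Sen(IR) cells were compared with Prol cells to ask how the E2F and pocket protein genes differ between senescent and proliferating fibroblasts. Of the 10 genes, 6 were lower in Sen(IR) and 0 were higher, at an adjusted p under 0.05 and an absolute log2 fold change over 0.5 (edgeR), against 22.4% of all genes tested called lower and 24.8% called higher. *E2F8*, *E2F2*, *RBL1*, *E2F1*, *E2F7* and *RB1* fell, in that order of size. *E2F3*, *E2F4* and *RBL2* passed the test of significance but differed by less than the fold limit, *RBL2* being the single member with a higher mean in Sen(IR). *E2F5* did not differ beyond the spread between libraries. An adjusted p under 0.05 at any fold was reached by 9 of the 10 genes, against 68.7% of all genes. Prol and Sen(IR) were free of overlap between libraries for the same number, 9, against 70.9% of all genes.

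Among the activators, *E2F1* (ENSG00000101412, chr20:33675477-33686385, minus strand, GRCh38) stood at 34.4, 24.0 and 35.7 CPM in the Prol libraries and at 7.03, 8.34 and 6.91 CPM in the Sen(IR) libraries. Every Prol library lay above every Sen(IR) library, with the second Prol library the lowest of its group. The mean was 4.22-fold lower in Sen(IR) (log2 fold change −2.08, SE 0.132, edgeR adjusted p 3.38e-12). *E2F2* (ENSG00000007968, chr1:23506438-23531233, minus strand), a second activator, stood at 13.01, 9.79 and 11.6 CPM in Prol and at 0.578, 0.427 and 0.490 CPM in Sen(IR), where 13, 9 and 10 reads were counted. It was 22.7-fold lower (−4.50, SE 0.219, edgeR adjusted p 3.06e-14), and again the second Prol library was the lowest of its group. *E2F3* (ENSG00000112242, chr6:20401879-20493714, plus strand) stood at 66.7, 58.3 and 63.3 CPM in Prol and at 43.9, 47.1 and 49.4 CPM in Sen(IR). These groups did not overlap, but the log2 fold change of −0.42 (95% interval −0.56 to −0.29, edgeR adjusted p 3.48e-06) was under the fold limit.

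*E2F4* (ENSG00000205250, chr16:67192155-67198918, plus strand), the main E2F of the DREAM complex, stood at 41.2, 37.4 and 41.1 CPM in Prol and at 30.1, 30.5 and 29.9 CPM in Sen(IR). The groups did not overlap, and the log2 fold change was −0.40 (95% interval −0.55 to −0.26, edgeR adjusted p 1.94e-05). *E2F5* (ENSG00000133740, chr8:85177154-85217158, plus strand), the other E2F that works with pocket proteins, stood at 8.999, 7.77 and 9.41 CPM in Prol and at 8.81, 9.39 and 7.65 CPM in Sen(IR). These libraries were interleaved, and the log2 fold change was −0.02 (95% interval −0.26 to 0.22, edgeR adjusted p 0.893), a sign that turns to 0.10 with upper-quartile scaling. Of the exon bases of *E2F5*, 18.8% also lie in exons of *RBIS* and of an unnamed gene on the opposite strand, and whether the libraries kept strand is not stated.

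*E2F7* (ENSG00000165891, chr12:77021248-77065569, minus strand), an atypical repressor, stood at 53.5, 35.5 and 46.0 CPM in Prol and at 12.9, 13.9 and 13.3 CPM in Sen(IR). The Prol libraries were spread more widely than the Sen(IR) libraries (SD 9.05 against 0.474 CPM, n = 3 each), and all of them were higher. *E2F7* fell 3.36-fold (−1.75, SE 0.110, edgeR adjusted p 2.93e-12). *E2F8* (ENSG00000129173, chr11:19224063-19241620, minus strand), the second atypical repressor, stood at 16.9, 13.2 and 16.2 CPM in Prol and at 0.356, 0.379 and 0.294 CPM in Sen(IR), with 8, 8 and 6 reads in the latter. It had the largest fold change of the 10 genes, 44.2-fold (−5.47, SE 0.232, edgeR adjusted p 2.66e-15). Per length, the level in Sen(IR) was 2.13 CPM per kb of exon for *E2F7* and 0.0830 CPM per kb for *E2F8*.

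*RB1* (ENSG00000139687, chr13:48303744-48599436, plus strand) stood at 140, 135 and 128 CPM in Prol and at 82.5, 85.4 and 86.2 CPM in Sen(IR). It fell 1.59-fold without overlap (−0.67, SE 0.0564, edgeR adjusted p 4.96e-10). *RBL1* (ENSG00000080839, chr20:36996349-37095997, minus strand), which encodes p107, stood at 63.6, 54.0 and 55.1 CPM in Prol and at 9.52, 10.002 and 10.1 CPM in Sen(IR). It fell 5.84-fold (−2.55, SE 0.117, edgeR adjusted p 1.08e-14), with Sen(IR) libraries that lay close together. *RBL2* (ENSG00000103479, chr16:53433977-53491648, plus strand), which encodes p130, stood at 56.2, 61.4 and 52.0 CPM in Prol and at 70.3, 71.4 and 70.6 CPM in Sen(IR). Here every Sen(IR) library was the higher one, at a log2 fold change of 0.32 (95% interval 0.20 to 0.45, edgeR adjusted p 5.67e-05). Of the exon bases of *RBL2*, 16.4% are shared with *AKTIP* and another gene on the opposite strand, against 3.58% shared with another gene for *RBL1* and 0% for *RB1*.

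**Figure D1:**
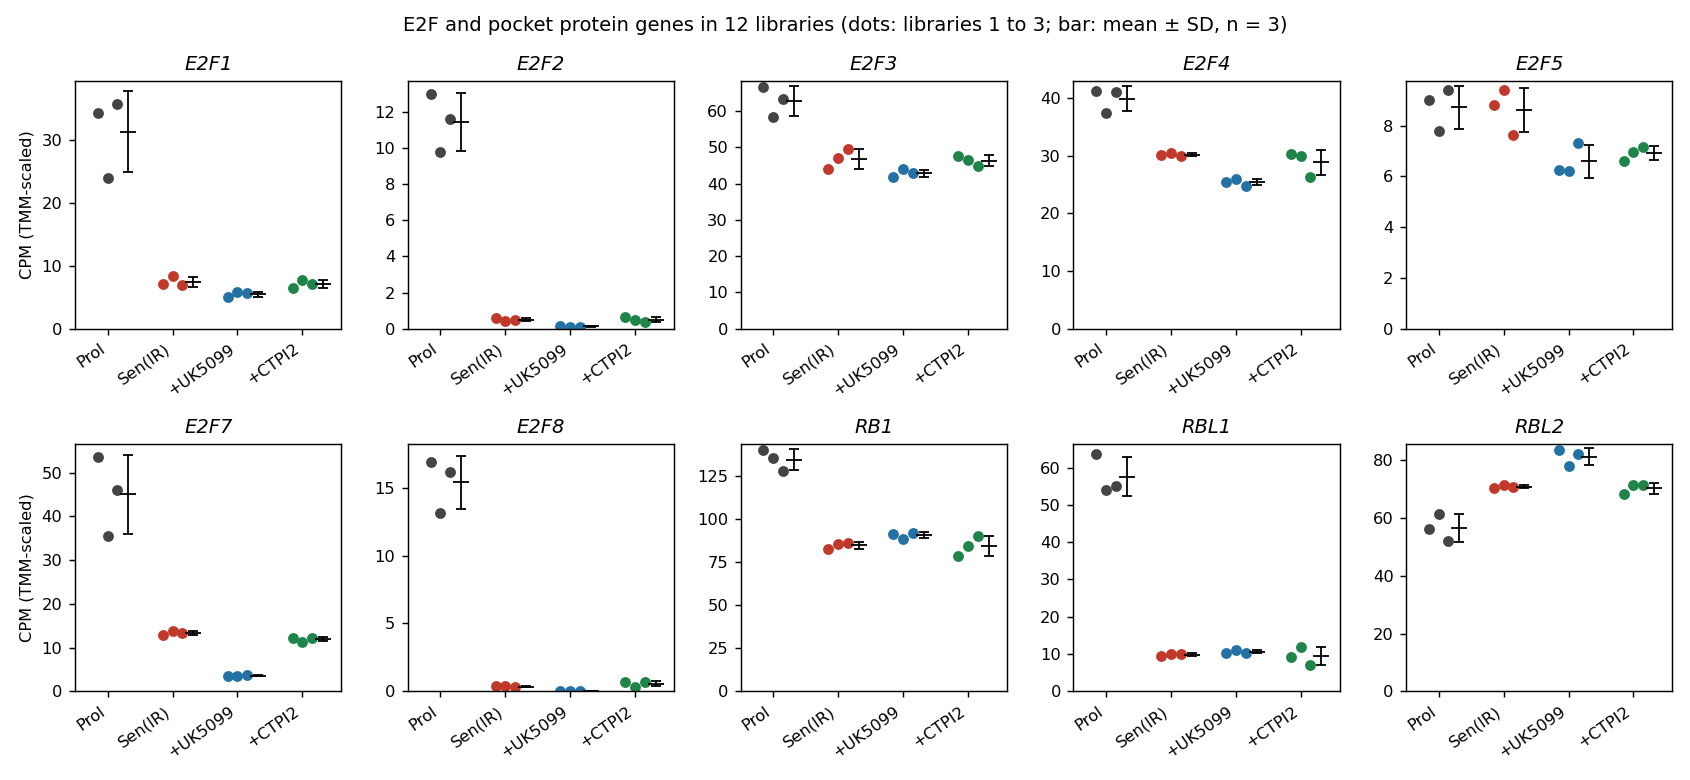
Level of each gene in CPM (y axis, linear and starting at 0, scaled per gene) in the 12 libraries by group; dots are libraries and the bar is the mean ± SD (n = 3). *E2F1*, *E2F2*, *E2F7*, *E2F8*, *RB1* and *RBL1* were highest in the 3 Prol libraries, *RBL2* was highest in the 3 UK5099 libraries, and *E2F7* in the UK5099 libraries lay at 3.41 to 3.68 CPM, below every other library.

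Scaled to exon length, the order of the levels differed between the groups. In Prol the mean levels were 20.9 CPM per kb for *RB1*, 12.1 for *E2F3*, 11.6 for *E2F1*, 11.1 for *E2F4* and 9.67 for *RBL1*, and the lowest was *E2F5* at 1.45 CPM per kb. The Prol libraries of *E2F3*, *E2F1* and *E2F4* overlapped with each other (SDs of 0.814, 2.39 and 0.605 CPM per kb, n = 3). In Sen(IR) the order ran from *RB1* at 13.2 CPM per kb through *E2F3* at 9.02, *RBL2* at 8.73 and *E2F4* at 8.39, with *E2F1* at 2.76 and *RBL1* at 1.66 CPM per kb. *E2F2* and *E2F8* were the lowest in Sen(IR), at 0.0913 and 0.0830 CPM per kb with SDs of 0.0139 and 0.0106, so those neighbors did not differ beyond their spread.

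The pocket protein genes were also described as shares of their summed CPM per kb within a library. *RB1* held 55.7% ± 0.343 (SD, n = 3) in Prol and 55.9% ± 0.392 in Sen(IR). *RBL1* held 25.7% ± 1.54 in Prol and 7.03% ± 0.0919 in Sen(IR), while *RBL2* held 18.6% ± 1.35 and 37.1% ± 0.475. The share of *RB1* was thus close in both groups, and of the remainder *RBL1* held more in Prol and *RBL2* more in Sen(IR). With UK5099 the shares were 54.5% for *RB1*, 6.86% for *RBL1* and 38.7% for *RBL2*, and with CTPI2 they were 56.1%, 6.79% and 37.1%.

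Among the 7 E2F genes, *E2F1*, *E2F3* and *E2F4* held similar shares in Prol, 23.5% ± 2.33, 24.7% ± 1.57 and 22.7% ± 1.63 (SD, n = 3). In Sen(IR), *E2F3* held 37.7% ± 1.76 and *E2F4* held 35.1% ± 0.916, and *E2F1* held 11.5% ± 0.968. The share of *E2F7* was 14.4% in Prol, 8.90% in Sen(IR), 2.97% with UK5099 and 8.32% with CTPI2. The UK5099 libraries thus had the lowest *E2F7* share, beside an *E2F3* share of 43.4% and an *E2F4* share of 37.1%.

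**Figure D2:**
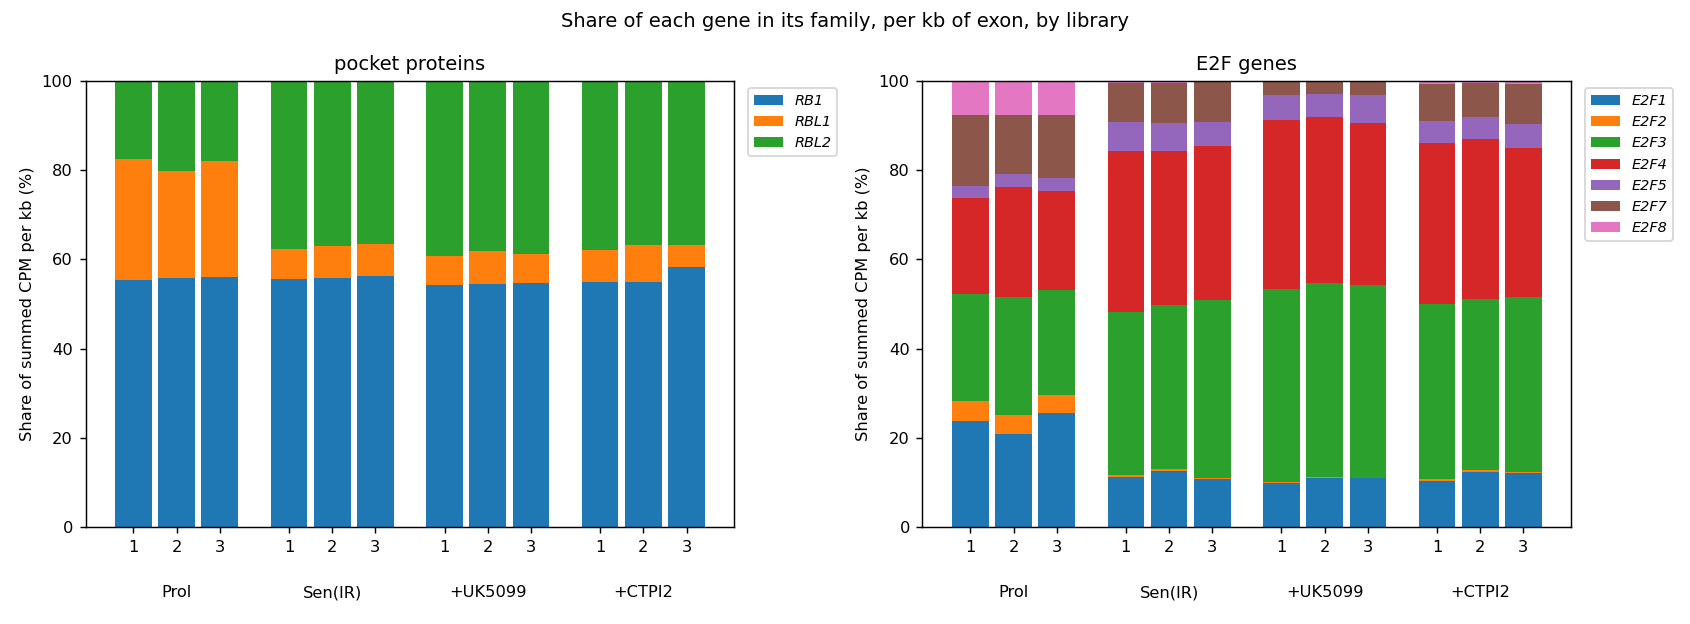
Share of each gene (y axis, %) in the summed CPM per kb of exon of its family, in the 12 libraries by group; the 3 pocket protein genes are on the left and the 7 E2F genes on the right. The *RBL1* segment is 24.1 to 27.1% in the Prol libraries and 4.94 to 8.42% in the 9 irradiated libraries.

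The ratio of *RBL2* to *RBL1* counts within a library does not depend on the scaling between libraries. Its log2 value was −0.18, 0.19 and −0.08 in Prol and 2.88, 2.84 and 2.81 in Sen(IR). The ratio was 7.31-fold higher in Sen(IR) without overlap (exact two-sided permutation p 0.1, the smallest that 3 against 3 libraries allow, 0.2 after adjustment over the 6 ratios tested). With UK5099 the log2 ratio was 3.00, 2.82 and 3.00, and with CTPI2 it was 2.88, 2.57 and 3.34. Against Sen(IR) these differed by 0.10 (exact permutation p 0.3) and 0.09 (exact permutation p 0.8), less than the spread between libraries. Leaving out the third CTPI2 library, in which *RBL1* was lowest, turned the latter difference to −0.12.

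The log2 ratio of *E2F4* to *E2F1* counts was 0.26, 0.64 and 0.21 in Prol and 2.099, 1.87 and 2.11 in Sen(IR). The ratio of this pair was 3.15-fold higher in Sen(IR), again without overlap (exact permutation p 0.1, adjusted 0.2). It does not stand for repressors and activators as classes. The activator *E2F3* had a log2 fold change of −0.42, beside −0.40 for *E2F4*, and the repressors *E2F7* and *E2F8* fell (−1.75 and −5.47). With UK5099 the log2 ratio was 2.36, 2.16 and 2.14, every value above those of Sen(IR), at a difference of 0.19 (exact permutation p 0.1, adjusted 0.2). The difference was 0.114 without the second Sen(IR) library and 0.125 without the first UK5099 library (exact permutation p 0.3 for both). With CTPI2 it was 2.23, 1.95 and 1.89, which overlapped with Sen(IR), at a difference of −0.0029 (exact permutation p 1).

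UK5099-treated senescent cells were then compared with untreated Sen(IR) cells, to ask whether blocking pyruvate import moved the same genes. Of the 10 genes, 3 fell and 0 rose, against 12.1% of all genes tested called lower and 8.76% called higher. The 3 were *E2F7*, *E2F2* and *E2F8*. *E2F1*, *E2F4*, *E2F5* and *RBL2* passed the test of significance under the fold limit, and *E2F3*, *RB1* and *RBL1* did not pass it. An adjusted p under 0.05 at any fold was thus reached by 7 of the 10 genes, against 45.4% of all genes. For each of the 10 genes the UK5099 and Sen(IR) libraries were free of overlap, against 56.6% of all genes. Of the 9 fibroblast markers, 5 also fell with UK5099, *COL1A1* from 4714 to 1601 CPM, *COL1A2* from 7321 to 3519, *COL3A1* from 2752 to 819, *THY1* from 366 to 217 and *FAP* from 145 to 13.2 CPM. The other 4 were not called, *DCN* at 1363 and 1362 CPM, *LUM* at 357 and 370, *PDGFRB* at 156 and 162 and *VIM* at 3063 and 2780 CPM in Sen(IR) and UK5099. The lower marker sum given above is thus that of the collagens in the main, and its part in these differences was not tested.

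*E2F7* was counted in 291, 293 and 272 reads in the Sen(IR) libraries and in 86, 92 and 95 reads in the UK5099 libraries, that is 12.9, 13.9 and 13.3 CPM against 3.56, 3.41 and 3.68 CPM. Both groups were tight and far apart. *E2F7* fell 3.77-fold (−1.91, SE 0.141, edgeR adjusted p 1.97e-10). The log2 fold change of *E2F7* between Sen(IR) and Prol was −1.75, and both comparisons use the same Sen(IR) libraries.

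*E2F2* was counted in 13, 9 and 10 reads in Sen(IR) and in 4, 3 and 2 reads with UK5099, or 0.166, 0.111 and 0.0775 CPM in the latter. *E2F8* was counted in 8, 8 and 6 reads in Sen(IR) and in 1, 0 and 0 reads with UK5099. Both genes were near the detection floor with UK5099, so their fitted fold changes depend on edgeR's prior count. Over the pooled counts, *E2F2* was 4.28-fold lower with UK5099 (95% counting interval 1.99 to 10.2, 9 against 32 reads, edgeR adjusted p 0.00115). *E2F8* was 26.5-fold lower (95% counting interval 4.28 to 1092, 1 against 22 reads, edgeR adjusted p 2.07e-04). These intervals cover counting error only.

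**Figure D3:**
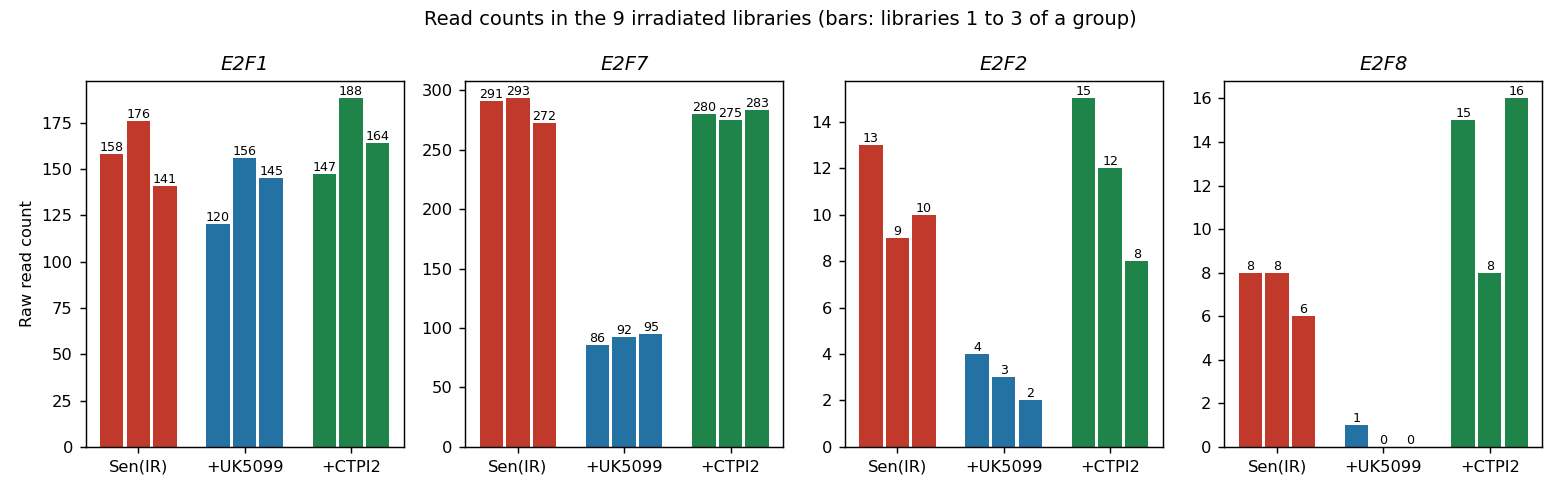
Raw read counts (y axis, starting at 0, scaled per gene) of *E2F1*, *E2F7*, *E2F2* and *E2F8* in the 9 irradiated libraries, with the count written on each bar. *E2F7*, *E2F2* and *E2F8* have their 3 lowest counts in the UK5099 libraries, while the *E2F1* counts of 120, 156 and 145 with UK5099 overlap with 158, 176 and 141 in Sen(IR) before scaling for library size.

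*E2F1* stood at 4.97, 5.79 and 5.62 CPM with UK5099, each below the 3 Sen(IR) libraries. The log2 fold change of −0.44 (95% interval −0.76 to −0.12, edgeR adjusted p 0.0219) was under the fold limit, and the interval reaches beyond it. *E2F4* stood at 25.5, 25.9 and 24.8 CPM (log2 fold change −0.25, edgeR adjusted p 0.00615) and *E2F5* at 6.25, 6.19 and 7.32 CPM (−0.39, edgeR adjusted p 0.0116). *E2F3* stood at 41.9, 43.9 and 42.9 CPM, just below the Sen(IR) range, at −0.13 (95% interval −0.26 to 0.01, edgeR adjusted p 0.118). All 4 of these genes had a lower mean with UK5099 and none of the 4 passed the fold limit.

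The pocket protein genes had higher means with UK5099. *RBL2* stood at 83.3, 77.8 and 82.2 CPM, above all Sen(IR) libraries, at a log2 fold change of 0.20 (95% interval 0.07 to 0.32, edgeR adjusted p 0.00938), which is under the fold limit. *RB1* stood at 91.4, 88.5 and 92.1 CPM (0.10, 95% interval −0.02 to 0.22, edgeR adjusted p 0.167). *RBL1* stood at 10.4, 11.0 and 10.3 CPM (0.10, 95% interval −0.17 to 0.37, edgeR adjusted p 0.562). The 4 genes with an E2F motif in the stretches shown above had log2 fold changes with UK5099 of −0.44 (*E2F1*), −2.05 (*E2F2*), −0.13 (*E2F3*) and 0.10 (*RBL1*). The value of *E2F2* rests on 9 against 32 reads, and a link between motif and difference was not tested.

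CTPI2-treated senescent cells were compared with the same Sen(IR) libraries, to ask the question for the citrate carrier. With edgeR 0 of the 10 genes were called, against 0.166% of all genes tested, and DESeq2 also called 0. At an unadjusted p under 0.05 edgeR gave 1 gene, *E2F5*, against 7.27% of all genes. *E2F5* stood at 6.62, 6.97 and 7.14 CPM, below the 3 Sen(IR) libraries, at a log2 fold change of −0.32 (95% interval −0.57 to −0.07, edgeR adjusted p 0.494). *E2F7* stood at 12.3, 11.3 and 12.3 CPM, also below Sen(IR) without overlap, at −0.16 (95% interval −0.41 to 0.09, edgeR adjusted p 0.861). These were the 2 genes without overlap, against 15.1% of all genes tested.

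The 95% intervals give the changes compatible with the CTPI2 libraries for each gene, without adjustment over all genes. For *E2F3*, *E2F4*, *RB1* and *RBL2* the 95% intervals of the log2 fold change lay between −0.21 and 0.12. For *E2F1*, at 6.45, 7.76 and 7.10 CPM with CTPI2, the interval was −0.37 to 0.25. For *RBL1*, at 9.25, 12.01 and 7.06 CPM with CTPI2, it was −0.34 to 0.22. The low genes were less certain. *E2F2* was counted in 15, 12 and 8 reads with CTPI2, and its interval of −0.73 to 0.73 holds a change of the fold limit in either direction. *E2F8* was counted in 15, 8 and 16 reads, with a log2 fold change of 0.69 (95% interval −0.13 to 1.504, edgeR adjusted p 0.782).

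**Figure D4:**
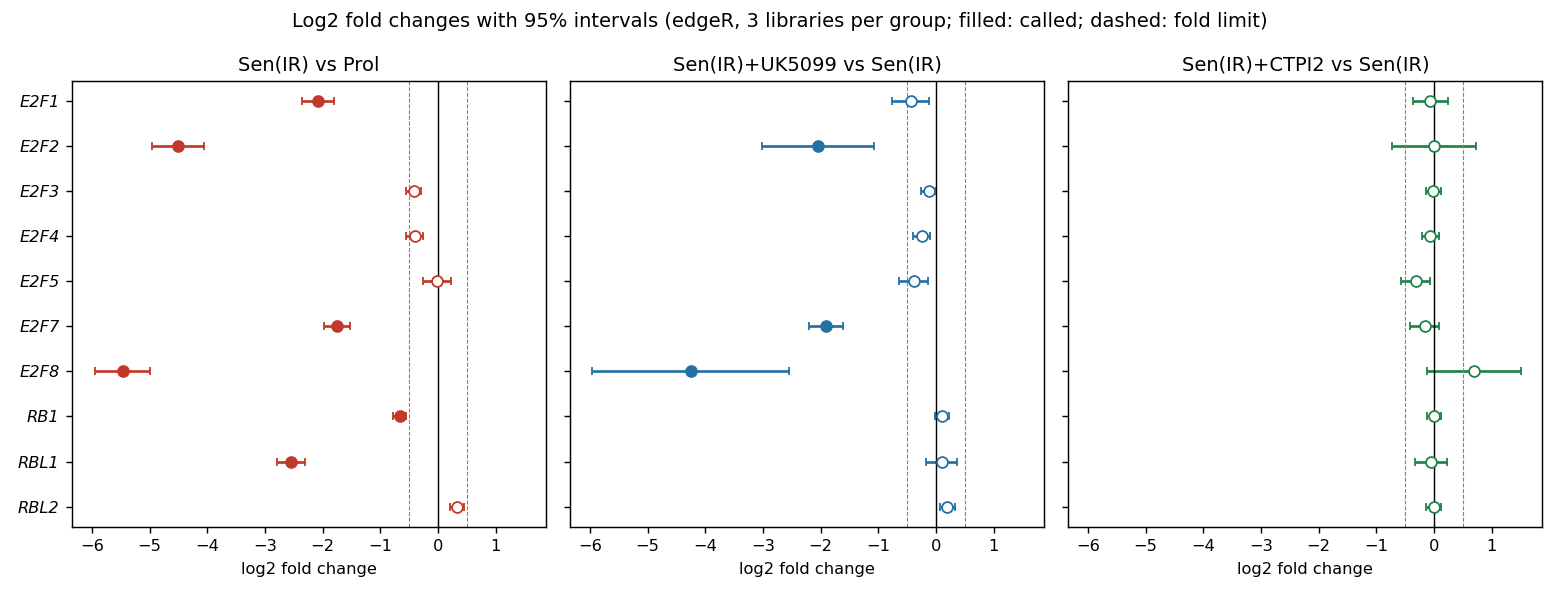
Log2 fold change (x axis) of the 10 genes with 95% intervals from edgeR (3 libraries per group) in 3 comparisons; filled points are called, and dashed lines mark the fold limit of 0.5. In Sen(IR) against Prol 6 points are filled, with UK5099 against Sen(IR) 3, and with CTPI2 against Sen(IR) 0.

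The inhibitors were also compared with each other, at doses that differ. *E2F2*, *E2F7* and *E2F8* were lower with UK5099 than with CTPI2, 3 of the 10 genes, against 11.7% of all genes called lower, and 0 were higher, against 8.2% called higher. *E2F7* was 3.36-fold lower (log2 fold change −1.75, SE 0.142, edgeR adjusted p 1.12e-09), with UK5099 libraries at 3.41 to 3.68 CPM and CTPI2 libraries at 11.3 to 12.3 CPM. Over pooled counts *E2F2* was 4.27-fold lower (95% counting interval 2.01 to 10.1, 9 against 35 reads, edgeR adjusted p 0.00104) and *E2F8* 42.8-fold lower (95% counting interval 7.24 to 1732, 1 against 39 reads, edgeR adjusted p 8.00e-06). *E2F1* (−0.38, edgeR adjusted p 0.0475), *E2F4* (−0.19, edgeR adjusted p 0.0363) and *RBL2* (0.21, edgeR adjusted p 0.00705) passed the test of significance under the fold limit, which made 6 of 10 with an adjusted p under 0.05, against 44.5% of all genes. *RB1*, *RBL1*, *E2F3* and *E2F5* did not pass it, with 95% intervals of the log2 fold change between −0.32 and 0.43.

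Against Prol, the UK5099 group had 8 genes called lower and 1 called higher, against 26.2% and 26.9% of all genes tested. *E2F3* (−0.55) and *E2F4* (−0.65) now passed the fold limit, and *RBL2* (0.52, SE 0.0596, edgeR adjusted p 5.57e-08) was the gene called higher. *RBL2* fell under the fold limit, at 0.46, without the third Prol library, and upper-quartile scaling put *E2F3* and *RB1* under it at −0.41 and −0.43. The CTPI2 group had 6 genes called lower and 0 higher against Prol, against 21.9% and 24.8% of all genes tested, and these were *E2F1*, *E2F2*, *E2F7*, *E2F8*, *RB1* and *RBL1*.

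The order of the 4 groups followed a few shapes, and neighbors in each order were compared by the edgeR adjusted p. *E2F1*, *E2F2*, *E2F3*, *E2F4* and *E2F7* had the highest mean in Prol and the lowest with UK5099, with Sen(IR) and CTPI2 between them. Sen(IR) and CTPI2 did not pass the test for any of these 5 genes, although the *E2F7* libraries of the groups were apart. For *E2F3* CTPI2 and UK5099 did not pass it either (edgeR adjusted p 0.170), with libraries that were again apart. *E2F8* had the same extremes with CTPI2 above Sen(IR), which did not pass the test. *RB1* ran from 134 CPM in Prol through 90.7 with UK5099 and 84.7 in Sen(IR) to 84.3 CPM with CTPI2, and no neighbors among the irradiated groups passed the test. *RBL1* was high in Prol, and the 3 irradiated groups lay between 9.44 and 10.6 CPM on average, where no neighbors passed the test, the UK5099 libraries lying just above those of Sen(IR). *RBL2* ran the other way, from 56.5 CPM in Prol through 70.3 with CTPI2 and 70.8 in Sen(IR), which overlapped, to 81.1 CPM with UK5099. *E2F5* had 8.73 and 8.62 CPM in Prol and Sen(IR) and 6.91 and 6.59 CPM with CTPI2 and UK5099, and no neighbors in that order passed the test, although the Sen(IR) and CTPI2 libraries were apart.

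The genes known as G1/S targets of E2F, which encode replication licensing, nucleotide synthesis and replication fork proteins, were examined beside the E2F genes. This list and those below were chosen with earlier results of these data known, so their counts are descriptions only. In Sen(IR) against Prol all 34 of the 34 listed were called lower, against 22.4% of all genes tested. The median log2 fold change was −2.80, beside 0.01 over all genes. The largest differences were in *MCM10*, a replication initiation factor, from 61.9 to 3.46 CPM (log2 fold change −4.16), *CDCA7*, a MYC-responsive gene, from 49.6 to 3.33 CPM (−3.90), *ORC1*, a subunit of the origin recognition complex, from 29.98 to 2.13 CPM, and *CDC45*, a part of the replicative helicase, from 40.0 to 2.89 CPM. With UK5099 against Sen(IR), 22 of 34 were called lower and 0 higher, against 12.1% and 8.76% of all genes, with a median of −0.74 beside 0.01. *RRM2*, the regulated subunit of ribonucleotide reductase, fell from 55.8 to 4.61 CPM (12.1-fold, edgeR adjusted p 6.85e-17), and *TK1*, thymidine kinase, fell from 8.10 to 0.801 CPM (9.99-fold, edgeR adjusted p 1.40e-12). With CTPI2 edgeR and DESeq2 called 0 of 34, beside 0.166% of all genes with edgeR, and the median was −0.03, beside 0.003. At an unadjusted p under 0.05 edgeR gave 2 of them, against 7.27% of all genes.

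The G2/M genes that DREAM represses, which encode mitotic kinases, motors and spindle proteins, were examined in the same way. In Sen(IR) all 22 of the 22 listed were called lower, against 22.4% of all genes tested, with a median log2 fold change of −4.21 beside 0.01. *PLK1*, a mitotic kinase, fell from 119 to 4.04 CPM (−4.88), and *CDC20*, an activator of the anaphase-promoting complex, fell from 153 to 6.11 CPM (−4.64). With UK5099 all 22 were called lower again, against 12.1% of all genes, with a median of −1.70 beside 0.01. *BIRC5*, which encodes survivin, fell from 11.2 to 0.846 CPM (log2 fold change −3.70, edgeR adjusted p 7.49e-13). *MKI67*, the proliferation marker Ki-67, fell from 11.0 to 0.9497 CPM (−3.54, edgeR adjusted p 3.38e-12). With CTPI2 edgeR and DESeq2 called 0 of 22, beside 0.166% of all genes with edgeR, and the median was 0.01, beside 0.003. At an unadjusted p under 0.05 edgeR gave 3 of them, against 7.27% of all genes. *MKI67* libraries lay at 210 to 271 CPM in the Prol group and at 9.27 to 12.6 CPM in the Sen(IR) group. The UK5099 libraries lay at 0.630 to 1.37 CPM, below all others, and the CTPI2 libraries at 11.1 to 13.8 CPM.

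**Figure D5:**
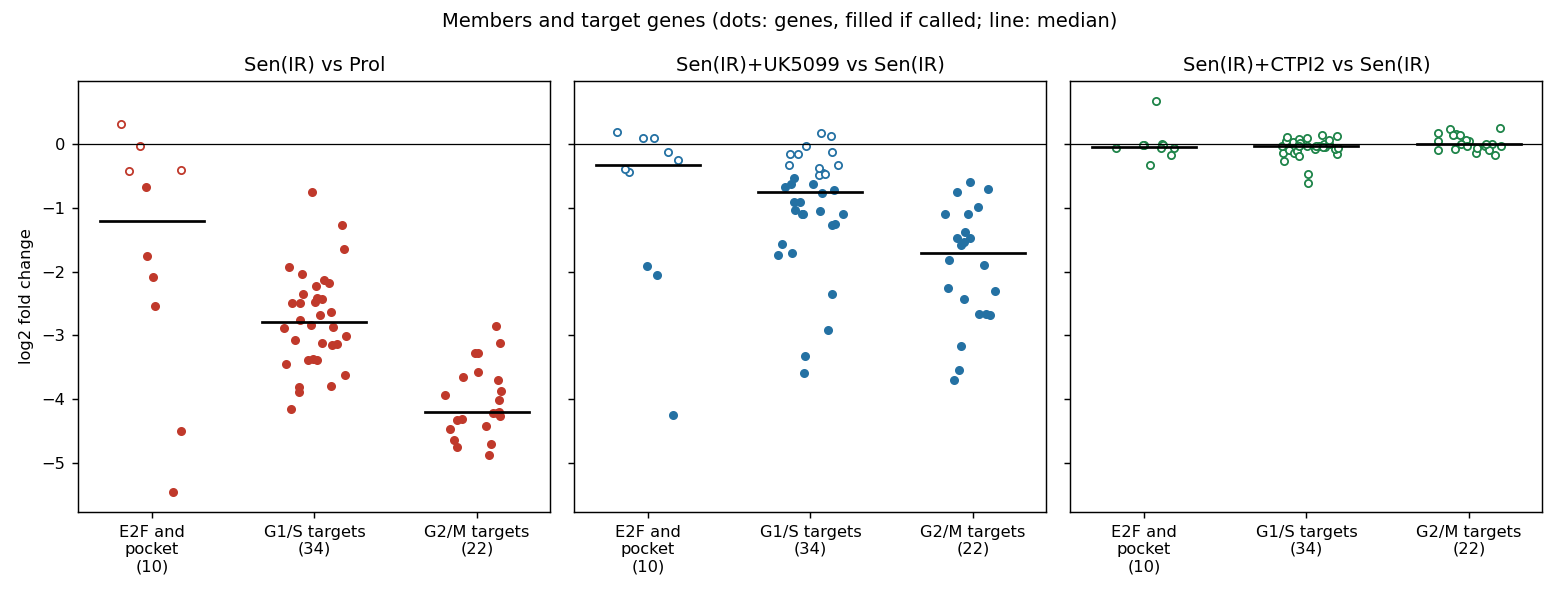
Log2 fold change (y axis) of the 10 E2F and pocket protein genes, the 34 G1/S target genes and the 22 G2/M target genes in 3 comparisons; each dot is a gene, filled if called, and the line is the median of the list. The medians of the G1/S and G2/M lists are −2.80 and −4.21 in Sen(IR) against Prol, −0.74 and −1.70 with UK5099 against Sen(IR), and −0.03 and 0.01 with CTPI2 against Sen(IR).

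The same letters were counted in the RefSeq promoter entries of these lists, in which a gene can have several entries or none. The E2F motif was present in 20 of 43 promoters of G1/S targets (46.5%) and in 3 of 22 promoters of G2/M targets (13.6%), beside 3.31% of all RefSeq promoters. The CHR was present in 16 of 22 promoters of G2/M targets (72.7%) and in 2 of 43 of G1/S targets (4.65%), beside 16.4% of all RefSeq promoters.

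Of the partners of the E2Fs, *TFDP1*, the main DP subunit, fell from 238 to 122 CPM in Sen(IR) (edgeR adjusted p 6.06e-13, log2 fold change −0.97, SE 0.0558), and it had a log2 fold change of −0.02 with UK5099. *TFDP2*, the second DP subunit, stood at 27.6 CPM in Prol and 38.8 CPM in Sen(IR) (0.50, just under the fold limit) and rose to 58.6 CPM with UK5099 (0.59, SE 0.0707, edgeR adjusted p 4.31e-07). *E2F6*, a repressor that does not bind pocket proteins, stood at 24.6, 18.3, 17.8 and 17.3 CPM in Prol, Sen(IR), UK5099 and CTPI2, and was not called in Sen(IR) against Prol or in either inhibitor against Sen(IR). With CTPI2 against Sen(IR), 0 of these 3 genes were called by edgeR, against 0.166% of all genes, and 0 of them had an unadjusted p under 0.05, against 7.27%.

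In the lists that follow, counts stand beside the shares of all genes tested given above, 22.4% called lower and 24.8% higher in Sen(IR) against Prol and 12.1% and 8.76% with UK5099 against Sen(IR), and medians beside 0.01 over all genes in both. Of the 8 genes of the MuvB core, its kinase, B-MYB and FOXM1, 6 fell in Sen(IR) and 0 rose, with a median log2 fold change of −1.14. *MYBL2*, which encodes B-MYB and takes the place of the pocket protein at MuvB in cycling cells, fell from 77.4 to 2.82 CPM (−4.78), and *FOXM1*, a driver of G2/M genes, fell from 162 to 11.2 CPM (−3.85). The core subunits *LIN9* (−2.33), *LIN52* (−1.29), *LIN54* (−0.99) and *RBBP4* (−0.73) fell too, and *LIN37* (0.15) and the kinase gene *DYRK1A* (−0.31) were not called. With UK5099, *MYBL2* fell further to 0.278 CPM (−3.34, edgeR adjusted p 1.67e-09) and *FOXM1* to 4.33 CPM (−1.37, edgeR adjusted p 2.14e-10), while *LIN52* rose from 11.5 to 16.3 CPM (0.51, edgeR adjusted p 1.07e-04). *LIN9*, *LIN54* and *RBBP4* had log2 fold changes of −0.02, 0.06 and 0.07 with UK5099.

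Of the 9 cyclin and kinase genes that act on pocket proteins, 3 rose and 4 fell in Sen(IR), with a median log2 fold change of 0.07. The D-type cyclins rose, *CCND2* from 16.3 to 259 CPM (3.98, SE 0.0901, edgeR adjusted p 6.46e-20), *CCND1* from 1039 to 3310 CPM (1.67) and *CCND3* from 80.5 to 140 CPM (0.80). *CDK2*, the partner of cyclin E, fell from 151 to 23.5 CPM (−2.68), its activating phosphatase gene *CDC25A* from 39.2 to 6.73 CPM (−2.54), *CCNE2*, a cyclin E gene, from 27.2 to 5.39 CPM (−2.34) and *CDK4*, a partner of D-type cyclins, from 104 to 50.6 CPM (−1.03). With UK5099, 5 of the 9 fell and 0 rose, namely *CCNE2* (−1.73), *CCND3* (−0.77), *CDK2* (−0.67), *CDK6* (−0.61), a second partner of D-type cyclins, and *CDC25A* (−0.55). *CCNE1*, the other cyclin E gene, stood at 10.9, 13.1 and 12.1 CPM in Prol, Sen(IR) and UK5099 and was not called in either comparison.

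Of the 7 CDK inhibitor genes, which encode proteins that keep pocket proteins unphosphorylated, 2 rose and 4 fell in Sen(IR), with a median log2 fold change of −0.75. *CDKN1A*, which encodes p21, rose from 315 to 1055 CPM (1.74, SE 0.0540, edgeR adjusted p 1.03e-17), and *CDKN2B*, which encodes p15, rose from 14.9 to 38.0 CPM (1.35). *CDKN2A*, which encodes p16 and ARF, fell from 7.52 to 4.07 CPM (−0.89, edgeR adjusted p 6.67e-05), and *CDKN2C*, which encodes p18, fell from 40.5 to 2.48 CPM (−4.03). With UK5099, *CDKN1A* had a log2 fold change of 0.06 (edgeR adjusted p 0.395), *CDKN2C* fell to 0.815 CPM (−1.59) and *CDKN1C*, which encodes p57, rose from 2.86 to 4.36 CPM (0.61, edgeR adjusted p 0.0142). The *CDKN1C* libraries overlapped, at 2.56 to 3.38 CPM in Sen(IR) and 3.30 to 4.97 CPM with UK5099.

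Of the 12 corepressor genes whose products pocket proteins recruit, 4 fell in Sen(IR), against 22.4% of all genes tested, and 0 rose, with a median log2 fold change of −0.27, the largest difference being in *SUV39H1*, a histone H3K9 methyltransferase, from 17.1 to 3.48 CPM (−2.30). The others called were *RBBP7*, a histone-binding subunit, and the deacetylases *HDAC1* and *HDAC2*. With UK5099 0 of the 12 were called by edgeR, and 7 had an unadjusted p under 0.05, as had 8391 of the 16251 genes tested. Of the 8 ubiquitin ligase genes, 6 fell in Sen(IR), at a median of −0.96, among them *FBXO5* (−3.67), an inhibitor of the anaphase-promoting complex, *CCNF* (−3.27), the F-box protein cyclin F, and *SKP2* (−1.34), whose product targets p27 and p130. With UK5099 *FBXO5* (−1.07) and *CCNF* (−0.59) fell and *SKP2* had a log2 fold change of 0.32, under the fold limit. With CTPI2 edgeR called 0 genes in the MuvB, cyclin and kinase, CDK inhibitor, corepressor and ubiquitin ligase lists, against 0.166% of all genes. At an unadjusted p under 0.05 it gave 0, 1, 1, 0 and 1 of them, against 7.27% of all genes. Exons of genes named in these lists are shared with other genes over 54.0% of the bases of *LIN37*, 44.2% of *CDK4*, 37.1% of *CCNE2*, 22.8% of *RBBP4*, 21.2% of *SUV39H1*, 20.4% of *CDKN2C*, 16.8% of *CDK2*, 15.9% of *FOXM1* and 15.3% of *CDKN2A*.

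The genes most like each E2F or pocket protein gene were sought among 12331 genes, by the root mean square difference of centered log2 CPM over the 12 libraries. *E2F1* was nearest to *FAM46C* (0.119) and *DTYMK* (0.140), and *RBL1* to *TIMELESS* (0.179). *E2F2* was nearest to *LMNB1* (0.196), *BUB1* (0.225) and *NUSAP1* (0.243; 86.8% of its exon bases are shared with other genes), and *E2F8* to *KIF14* (0.295), *NEK2* (0.325) and *KIF2C* (0.333). *E2F7* was nearest to *SPOCD1* (0.157), then *C1QTNF2* (0.228) and *FAM167A* (0.240). The flatter genes had smaller differences, *RBL2* from *TRAF3IP2* (0.0355), *E2F4* from *GDI2* (0.0449), *RB1* from *FAM120A* (0.0442), *E2F3* from *RECQL* (0.0484) and *E2F5* from *NT5C3A* (0.107). Among the 10 genes themselves, the pairs in which each gene was the nearest to the other were *E2F3* with *E2F4* (0.0690), *E2F1* with *RBL1* (0.325) and *E2F2* with *E2F8* (0.640). The nearest of the 10 genes to *E2F7* was *E2F1*, at 0.593. *E2F2* and *E2F8* had 9 and 1 reads over the UK5099 libraries. Their log2 CPM there, and so their nearest genes, depend in part on the prior count.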

How the data were processed

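RNA of 12 MRC5 libraries was sequenced as paired ends. The deposited values are raw read counts per gene: per the methods and the labels, the authors used Trimmomatic 0.36 for trimming, STAR 2.5.2b for alignment to GRCh38 and featureCounts (Subread 1.5.2) for counting unique exon reads. Reads that match several places are left out, and the strand setting and annotation release are not given in the sources used here.

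Counts were tested in R 4.3.3 with edgeR 4.0.16 (filterByExpr, TMM, glmQLFit and glmQLFTest, 1 fit of all 12 libraries), adjusted by Benjamini-Hochberg over 16251 genes, with limits of 0.05 on the adjusted p and 0.5 on the size of the log2 fold change for a call. The SE was the size of that fold change over the square root of F. Ratios within a library were tested by exact two-sided permutation. Positions and exon lengths come from GENCODE v44, promoters from RefSeq. Alternatives were DESeq2 1.42.0, scaling by RLE or upper quartile, omitting the filter, the compared groups alone, a replicate block, other limits, and each library left out. The fit was tested on simulated data. Total counts were 20597736 to 28245693 per library, and replicates varied by 6.12% (common dispersion).

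The members and gene lists were chosen with earlier results of these data known. Named genes were all 10 members, up to 4 called genes per list and comparison by size of fold (mean log2 CPM above 1), any gene of a list of at most 9, and for likeness up to 3 nearest genes.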

Additional observations from a re-analysis of the deposited data

How the results depend on the processing

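The counts of E2F and pocket protein genes called lower in Sen(IR) against Prol (5 to 6), with UK5099 against Sen(IR) (3) and with UK5099 against CTPI2 (3), and called with CTPI2 against Sen(IR) (0) stayed within 1.5 times of these numbers under every alternative that was run. With a fold limit of 1, the genes called with UK5099 against Prol went from 9 to 5, since 4 of them lie between the limits, and the G1/S targets called with UK5099 against Sen(IR) from 22 to 14. With CTPI2 against Sen(IR), 1 G1/S target was called without the low-count filter and 1 at the unadjusted p limit, against 0 otherwise. Upper-quartile scaling moved the median log2 fold change of all genes by over 0.1 in comparisons with Prol, to 0.13 for Sen(IR), and turned *E2F5* there to 0.10; *E2F3* and *RB1* with UK5099 against Prol went under the fold limit at −0.41 and −0.43.

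The replicate numbers did not pair the libraries: 0 of 18 same-numbered pairs had a correlation of deviations over 0.1 (−0.05 to 0.04), and 6 of 18 correlated best with their own number. With the replicate block, the calls of members stayed at 6, 3 and 0 in the main comparisons, and *E2F2* with CTPI2 against Sen(IR) changed sign at 0.00493.

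Leaving out each library in turn changed signs of differences near 0. With CTPI2 against Sen(IR) the log2 ratio of *RBL2* to *RBL1* ranged from −0.12 to 0.27 and that of *E2F4* to *E2F1* from −0.106 to 0.0628, and with UK5099 the latter ranged from 0.114 to 0.236. The log2 fold change with CTPI2 against Sen(IR) ranged from −0.133 to 0.0277 for *E2F1*, −0.241 to 0.199 for *E2F2* and −0.0602 to 0.0250 for *E2F3*. For the pocket protein genes in that CTPI2 comparison it ranged from −0.0557 to 0.0433 for *RB1*, −0.274 to 0.113 for *RBL1* and −0.0201 to 0.0133 for *RBL2*. *E2F5* in Sen(IR) against Prol ranged from −0.0948 to 0.0575, and *RBL1* with UK5099 against CTPI2 from −0.0108 to 0.374. *RBL2* with UK5099 against Prol went under the fold limit, at 0.46, without the third Prol library, and *E2F4* with CTPI2 against Prol passed it without the second Prol library (−0.51) or the first CTPI2 library (−0.50). The cause of these shifts was not tested. Depth limits *E2F2* and *E2F8*, which had 9 and 1 reads over the UK5099 libraries, 32 and 22 over Sen(IR) and 35 and 39 over CTPI2.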
